A study of Mus musculus with 202 samples.

Results

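The genes described here encode the translation initiation factors, taken as every row of the deposited table whose symbol begins with Eif followed by a digit from 1 to 6. The Eif2ak kinases and the gene of the alpha subunit of eIF2 were left out. The rule gave 53 of 28987 genes, of which 49 are named genes and 4 are pseudogenes. By factor there were 5 genes of eIF1 and its relatives, 5 of eIF2, 5 of eIF2B, 14 of eIF3, 12 of eIF4, 3 of the eIF4E-binding proteins, 4 of eIF5 and 1 of eIF6. The prefix also gathers Eif2a and Eif2d, which carry initiator tRNA outside the main route, Eif1ad, a relative of eIF1A, and Eif4enif1, a transporter of eIF4E.

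Initiation sets the rate of protein synthesis for most mRNAs. eIF2 brings the initiator tRNA to the small ribosomal subunit and eIF2B recharges eIF2 with GTP, while eIF1, eIF1A and the large eIF3 complex hold the subunit open for scanning. The eIF4F complex, made of eIF4E, eIF4G and eIF4A, recruits the capped mRNA, and the eIF4E-binding proteins hold eIF4E back until mTORC1 phosphorylates them. Under endoplasmic reticulum stress the kinase PERK phosphorylates eIF2, which blocks eIF2B and lowers general initiation, while the mRNA of the transcription factor ATF4 is then translated more.

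RNA was measured in single cells of a pancreatic ductal adenocarcinoma line of the KPC strain, established from a liver metastasis of a male mouse. Cells at passages 4 to 6, grown in DMEM with serum, were stained with an antibody to E-cadherin, sorted into positive (Ecad+) and negative (Ecad-) cells and captured on a Fluidigm C1 chip for SMARTer amplification. The table holds 104 Ecad+ and 98 Ecad- libraries. Averaging 5 pairs of nearly identical libraries left 100 Ecad+ and 97 Ecad- cells. Both groups come from 1 line, received no treatment named in the labels, and are separated in the labels only by the sort. The labels name no separate cultures or animals. Each group is therefore 1 sample, and no difference below has a replicate check or a p-value.

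A level is the mean over cells in TPM, a unit that shares a fixed total of 1000000 among the transcripts of a cell after scaling for their length. A ratio is log2 of the Ecad- mean plus 1 TPM over the Ecad+ mean plus 1 TPM, so values above 0 are higher in Ecad- cells, and it understates the change of low genes. TPM holds no read depth, so the depth of a cell is unknown. A gene is called expressed here when its level over all cells reaches 5 TPM and 10% or more of the cells list it above 0, which held for 7227 genes. The libraries fall into 3 sets by the suffix of their names, whose meaning the labels do not give. Over all expressed genes the median ratio was 0.31, and it was 0.16, 0.44 and 0.26 within sets 1, 2 and 3, so ratios are also given relative to that median. Mitochondrial genes took under 1% of TPM in 40 Ecad- cells and in 1 Ecad+ cell, here called low-share cells. By library set, they made up 6 of 33, 12 of 32 and 22 of 33 of the Ecad- libraries. Values without them, over 57 Ecad- and 99 Ecad+ cells with an all-gene median of 0.14, stand beside the results, and their part in a result was not otherwise tested. Library numbers run from 1 to 40 in Ecad+ and start at 41 in Ecad- cells, so an effect of that number and of the sort cannot be told apart.

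The ductal epithelial markers of the labelled cell type were present, and most were lower in Ecad- cells. All 7 were expressed, 5 were at least 2-fold lower, all 7 lay below the all-gene median in each set, and their median ratio was -1.19. Without low-share cells 2 stayed 2-fold lower. Cdh1, which encodes E-cadherin, averaged 37.9 TPM in positive and 16.1 TPM in negative cells. Its ratio was -1.19 and -0.91 without low-share cells. The keratin gene Krt7 had means of 649.7 and 161.9 TPM, and Krt19, Krt8 and Krt18 had ratios of -1.63, -1.07 and -0.41. Krt18 was above 0 in 100 Ecad+ and 96 Ecad- cells. Cldn7, a tight junction gene, had a ratio of -2.31 and a value above 0 in 95 Ecad+ against 46 Ecad- cells, and Epcam in 46 against 25. The leukocyte gene Ptprc was listed at 0 in every cell, as were Col3a1 and Lum of fibroblasts. All 7 fibroblast and all 3 endothelial markers had means under 1 TPM in both groups. Of 6 immune markers only Cd68, also a lysosomal gene in other cells, was expressed, at 6.35 TPM in Ecad+ against 30.0 TPM in Ecad- cells. The summed level of the 6 immune markers ran from 0 to 126 TPM in Ecad+ and from 0 to 370.1 TPM in Ecad- cells. Of 3 hepatocyte markers Ttr was expressed, at 7.74 and 10.6 TPM, while Alb was above 0 in 1 cell.

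Eif1 and Eif1b, which head the results, encode near-identical forms of eIF1, and their coding starts are shown for comparison. Each coding sequence is 342 bases long, and 81.3% of the bases are the same. The first 90 bases from the start codon, read 5′ to 3′ from GENCODE M21 transcripts on GRCm38 in the sense of the gene, carry their 13 differences in capitals.
Eif1: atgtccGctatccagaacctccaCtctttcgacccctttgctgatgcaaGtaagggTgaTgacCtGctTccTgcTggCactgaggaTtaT
Eif1b: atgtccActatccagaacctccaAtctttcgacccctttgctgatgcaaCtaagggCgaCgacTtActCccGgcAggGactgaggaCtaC

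eIF1 itself guards the choice of start codon, and start codons in a poor context are the ones it rejects. The 20 bases around the start codon, with the ATG in capitals, are shown for both eIF1 genes and for 4 other members whose values are given below, from the same transcripts and in the sense of the gene. The base at position 3 before the ATG, where a purine favours recognition, is a pyrimidine in Eif1 and Eif1b and a purine in the other 4.
Eif1: atcgtatcgtATGtccgcta
Eif1b: ctagtgtcgcATGtccacta
Eif2s2: aactacagccATGtccgggg
Eif4ebp1: tgcaggagacATGtcggcgg
Eif5: ataagccaaaATGtctgtca
Eif5a: gcctcttaaaATGgcagatg

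Of the 53 genes, 47 were expressed by the rule above. The 6 that were not are Eif4e1b, Eif4g3, Eif4ebp2, Eif5a2 and the pseudogenes Eif3s6-ps1 and Eif3s6-ps2. Eif1 was the highest at 3836 TPM over all cells, followed by Eif5a at 1346 TPM and Eif6 at 385 TPM. Eif5b, the GTPase that joins the subunits, was at 11.2 TPM. The mean levels of all 53 genes added up to 7510 TPM in Ecad+ against 12671 TPM in Ecad- cells. Most of that gap was the eIF1 group, at 2441 and 5990 TPM, while the eIF3 genes added up to 1505 and 2127 TPM and the eIF4 genes to 1077 and 1353 TPM. In the median cell, the 53 genes held 0.735% of TPM in Ecad+ and 1.26% in Ecad- cells, and 0.732% and 0.864% without low-share cells. As a share of non-mitochondrial TPM, the medians were 1.13% and 1.37%, and 1.12% and 1.21% without low-share cells.

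**Figure D1:**
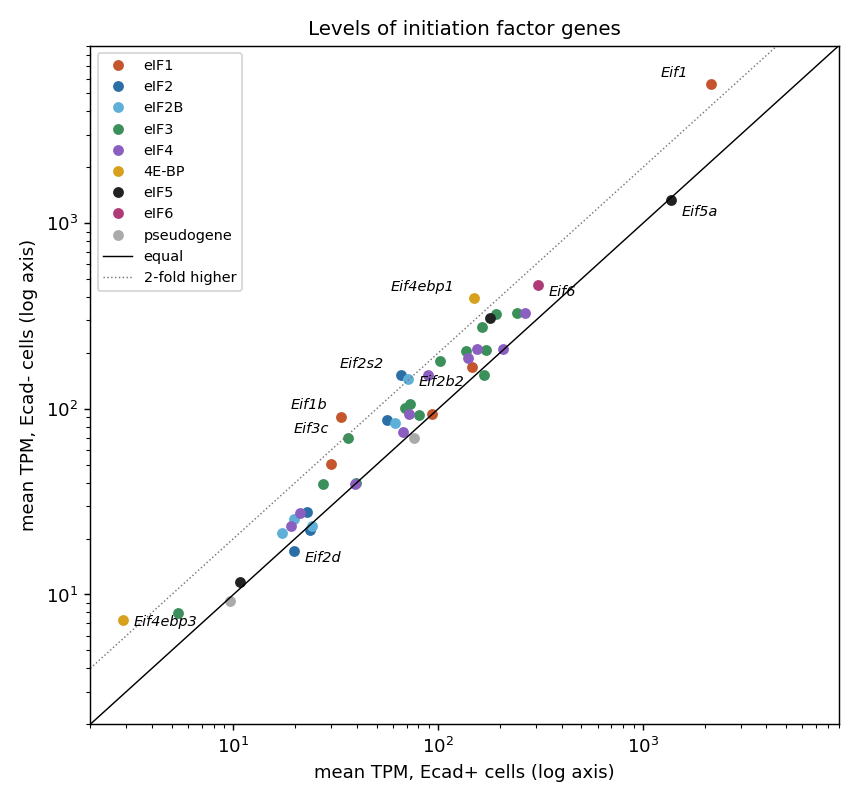
Mean TPM of the 47 expressed initiation factor genes in Ecad+ cells (x axis) and Ecad- cells (y axis), both on log axes, with each point a gene coloured by factor. The solid line marks equal levels and the dotted line a 2-fold higher level in Ecad- cells. Eif1 stands at the top right and above the dotted line, while Eif5a lies close to the line of equality.

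At a threshold of 2-fold, 6 of the 47 expressed genes were higher in Ecad- cells, where 14.2% of all expressed genes passed, and 0 were lower, where 4.14% passed. The 6 genes were Eif1b, Eif4ebp1, Eif1, Eif2s2, Eif4ebp3 and Eif2b2. Of these, Eif4ebp3 met the expression rule only through its Ecad- mean of 7.27 TPM, against 2.90 TPM in Ecad+ cells. Members past 2-fold were thus 12.8% of the group, near the share over all genes. Without low-share cells 0 members passed in either direction, against 4.94% higher and 3% lower over all genes. Relative to the all-gene median 3 members stayed 2-fold higher, against 7.73% of all genes. The median ratio of the members was 0.42, which is 0.12 above all genes. It lay 0.14, -0.00 and 0.21 from the all-gene median in sets 1, 2 and 3, and 0.04 above it without low-share cells.

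Direction across library sets separated the members further. In each of the 3 sets 18 of 47 lay above the all-gene median, against 29.5% of all genes, and 8 lay below it in each set, also against 29.5%. The 18 were Eif1, Eif1ad, Eif1b, Eif2a, Eif2s2, Eif2b2, Eif3a, Eif3c, Eif3f, Eif3g, Eif3j1, Eif3j2, Eif3k, Eif4a2, Eif4e, Eif4ebp1, Eif4ebp3 and Eif5. The 8 were Eif1a, Eif2d, Eif2b5, Eif3b, Eif3i, Eif4h, Eif5a and Eif5al3-ps. Without low-share cells these counts were 14 above, against 23.1% of all genes, and 9 below, against 23.3%. As measured, with no centring, 30 members were higher in each set, against 44.9% of all genes, and 0 were lower in each set, against 14.8%. The sign of a ratio depended on the setting for 20 members, all with a ratio of at most 0.36 in size, among them Eif1a, Eif1ax, Eif2s3x, Eif2s3y, Eif2b3, Eif2b4, Eif2b5, Eif3b, Eif4a1, Eif4g1, Eif4g2 and Eif5a.

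**Figure D2:**
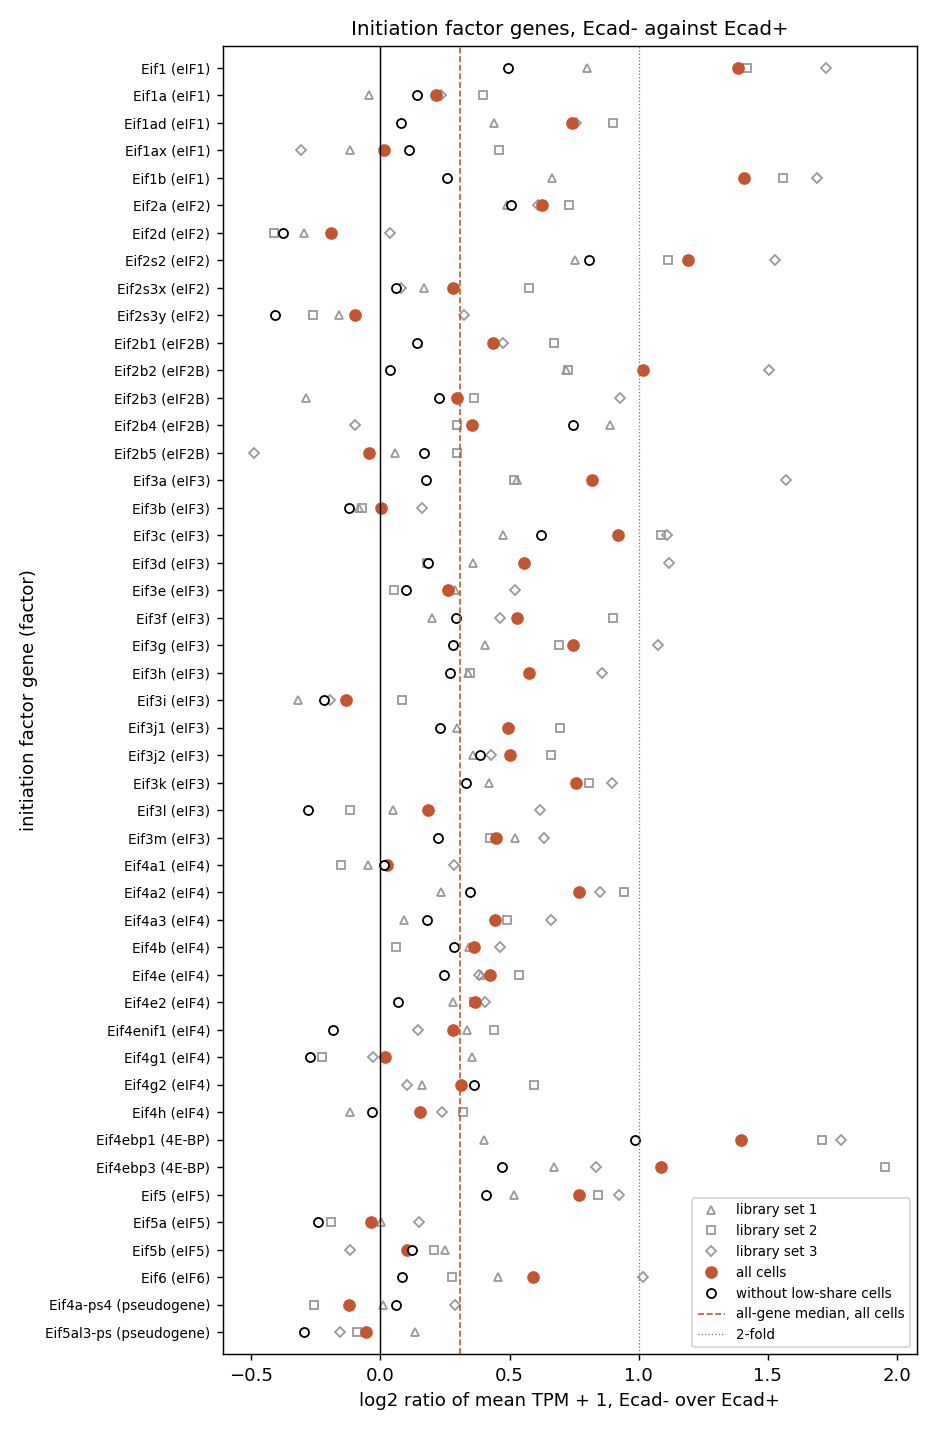
Log2 ratio of mean TPM plus 1, Ecad- over Ecad+ (x axis), for each of the 47 expressed genes (y axis), over all cells (filled circles), within library sets 1 to 3 (open grey symbols) and without low-share cells (open black circles). The dashed line is the all-gene median of 0.31 and the dotted line 2-fold; 6 filled circles lie at or beyond 2-fold, and no open black circle does.

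Among the scanning factors, Eif1 differed the most in level. Eif1 (ENSMUSG00000035530, chr11:100319885-100322096 in mm10, plus strand) lay at 797 to 4335 TPM with a median of 2010 TPM in Ecad+ cells, and at 4.10 to 30063 TPM with a median of 4135 TPM in Ecad- cells. The groups overlapped, but 47 of 97 Ecad- cells lay above the highest Ecad+ cell, and 38 of those 47 were low-share cells. Means were 2139 ± 685 TPM (SD, 100 cells) and 5585 ± 4542 TPM (SD, 97 cells), a ratio of 1.38 with 0.80, 1.42 and 1.73 in sets 1 to 3. Without low-share cells the ratio was 0.49, and it was 0.29, 0.48 and 0.96 within the sets. As a share of TPM, the Eif1 median was 0.208% in Ecad+ and 0.432% in Ecad- cells, and 0.207% and 0.234% without low-share cells. Of non-mitochondrial TPM it was 0.323% and 0.544%, and 0.322% and 0.316% without low-share cells, so on that scale the medians were near equal. Of the 31-base stretches of its annotated transcripts, 23.0% also occur in another gene, so part of its reads could be assigned elsewhere.

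Eif1b (ENSMUSG00000006941, chr9:120492232-120495330, plus strand) followed the same pattern at a lower level. It ran from 0 to 186.7 TPM with a median of 28.6 TPM in Ecad+ cells and from 0 to 563.5 TPM with a median of 49.0 TPM in Ecad- cells. The bulk of the 2 groups overlapped, and 13 Ecad- cells, 12 of them low-share, exceeded every Ecad+ cell. The ratio was 1.41, with 0.66, 1.56 and 1.69 within sets, and 0.26 without low-share cells. Of its 31-base stretches 7.80% occur elsewhere, nearly all in an antisense gene that overlaps it. The genes of eIF1A, which binds beside eIF1 on the small subunit, had small ratios of 0.21 for Eif1a and 0.01 for Eif1ax. Eif1ad was at 0.74 and 0.08 without low-share cells. The median of the 5 genes was 0.43 above all genes, and 0.00 without low-share cells.

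The subunits of eIF2 did not move as a unit. Eif2s2 (chr2:154871410-154892935, minus strand), the beta subunit through which eIF2 meets eIF5 and eIF2B, lay at 15.1 to 223.6 TPM with a median of 62.6 TPM in Ecad+ cells. In Ecad- cells it lay at 0 to 614.8 TPM with a median of 140.3 TPM. Most Ecad- cells were high: 78 of 97 stood above the Ecad+ median, and 19 above the highest Ecad+ cell, 13 of them low-share. The ratio was 1.19, and 0.75, 1.11 and 1.53 in sets 1 to 3. Without low-share cells it was 0.81, with 0.68, 1.01 and 0.50 within sets, the second highest of the 47 genes after Eif4ebp1.

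The gamma subunit, which binds GTP and the initiator tRNA, is encoded by an X-linked and a Y-linked copy whose coding sequences are 86.3% identical. Eif2s3x lay at 1.87 to 57.1 TPM with a median of 21.8 TPM in Ecad+ cells and at 0 to 108.6 TPM with a median of 25.2 TPM in Ecad- cells, a ratio of 0.28. Eif2s3y lay at 0 to 175.8 TPM with a median of 15.7 TPM in Ecad+ cells and at 0 to 174.8 TPM with a median of 0.343 TPM in Ecad- cells, a ratio of -0.10. No Ecad- cell exceeded the highest Ecad+ cell for Eif2s3y, while 8 did for Eif2s3x, 5 of them low-share, and otherwise the groups overlapped. The Y-linked copy had a value above 0 in 78 of 100 Ecad+ cells, with an exact 95% interval from 68.6% to 85.7%. Among Ecad- cells 54 of 97 had one, which is 55.7% with an interval from 45.2% to 65.8%. Both intervals take the cells to be independent and show counting error alone. Ecad- cells also had fewer genes above 0 in general, with a median of 8694 against 10338.

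The remaining carriers of initiator tRNA went in different directions. Eif2a had a ratio of 0.62, close within sets at 0.49, 0.73 and 0.61. Without low-share cells it was 0.51, but uneven within sets at 0.55, 0.58 and 0.05. Eif2d had the lowest ratio of the 47 genes at -0.19, with -0.29, -0.41 and 0.04 within sets. A value above 0 was listed for Eif2d in 95 Ecad+ against 65 Ecad- cells, and on means of log2 values its ratio was -1.10.

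eIF2B is a complex of 5 subunits, and 1 of them passed 2-fold. Eif2b2 (chr12:85219481-85226628, plus strand), the beta subunit of its regulatory part, lay at 0 to 191.5 TPM with a median of 61.1 TPM in Ecad+ cells and at 0 to 898.5 TPM with a median of 95.1 TPM in Ecad- cells. High values sat in the low-share cells: 27 Ecad- cells exceeded every Ecad+ cell, and 25 of those were low-share. The ratio was 1.02, with 0.72, 0.72 and 1.51 within sets, but 0.04 without low-share cells. The other regulatory subunits had ratios of 0.43 for Eif2b1 and 0.35 for Eif2b4. The catalytic Eif2b5 was at -0.05, and its partner Eif2b3 was at 0.30. Eif2b4 was at 0.74 without low-share cells. The median of the 5 genes lay 0.05 above all genes.

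All 14 eIF3 genes were expressed, and 0 passed 2-fold in either direction. eIF3 is the scaffold that joins the small subunit to eIF1, eIF5 and eIF4G. The all-gene median was exceeded by 10 of the 14, the other 4 lay under it, and the median of the complex was 0.21 above it, or 0.09 without low-share cells. Eif3c (chr7:126546455-126566411, minus strand), a core subunit that contacts eIF1 and eIF5, led the group. It lay at 3.76 to 181.7 TPM with a median of 33.2 TPM in Ecad+ cells and at 0 to 252.4 TPM with a median of 59.5 TPM in Ecad- cells. The ranges overlapped almost fully, but 74 Ecad- cells stood above the Ecad+ median. The ratio was 0.92, with 0.47, 1.09 and 1.11 within sets, and 0.62 without low-share cells.

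Other core and peripheral subunits of eIF3 followed at lower ratios. Eif3a, the largest subunit, lay at 7.26 to 258.2 TPM with a median of 87.0 TPM in Ecad+ cells and at 0 to 1440 TPM with a median of 115 TPM in Ecad- cells. Its 16 Ecad- cells above every Ecad+ cell included 14 low-share cells, and the ratio was 0.82 over all cells and 0.18 without them. Eif3k lay at 54.1 to 464.6 TPM with a median of 184.7 TPM in Ecad+ cells and at 2.77 to 1024 TPM with a median of 278.9 TPM in Ecad- cells. Its ratio was 0.76, and 0.33 without low-share cells. Eif3g, an RNA-binding subunit, lay at 25.0 to 431.0 TPM with a median of 138 TPM in Ecad+ cells and at 19.9 to 1078 TPM with a median of 216 TPM in Ecad- cells. Its ratio was 0.75, and 0.28 without low-share cells. All 3 overlapped between groups, with Ecad- cells reaching higher. At the other end, the Eif3b scaffold subunit had a ratio of 0.00 and Eif3i, which binds Eif3b, a ratio of -0.14, and both lay below the all-gene median in each set. Eif3d, Eif3e, Eif3f, Eif3h, Eif3l and Eif3m lay between 0.19 and 0.58.

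The genes Eif3j1 and Eif3j2 encode the loosely bound j subunit, and their coding sequences are 99.2% identical. Of the 31-base stretches of Eif3j2 94.9% occur in another gene, mostly in Eif3j1, so how reads were split between the copies is uncertain. Eif3j1 lay at 0.385 to 21.3 TPM with a median of 4.53 TPM in Ecad+ and at 0 to 32.3 TPM with a median of 6.08 TPM in Ecad- cells. Eif3j2 lay at 0.0382 to 75.9 TPM with a median of 26.4 TPM in Ecad+ and at 0 to 195.7 TPM with a median of 31.4 TPM in Ecad- cells. Each had a ratio of 0.50, with overlapping groups.

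Of the 12 eIF4 genes 10 were expressed and 0 passed 2-fold. The 3 genes of the eIF4A helicases, which unwind leader structure as part of eIF4F or, for Eif4a3, mark exon junctions, differed in ratio. Eif4a1 lay at 37.1 to 436.9 TPM with a median of 191.1 TPM in Ecad+ cells and at 0.173 to 482.9 TPM with a median of 207.6 TPM in Ecad- cells, a ratio of 0.02. Eif4a2, 77.8% identical to it over the coding sequence, lay at 19.7 to 317.4 TPM with a median of 77.0 TPM in Ecad+ and at 0 to 933.3 TPM with a median of 117.6 TPM in Ecad- cells, a ratio of 0.77. Eif4a3, 65.9% identical to Eif4a1, lay at 0 to 355.3 TPM with a median of 147.7 TPM in Ecad+ and at 0 to 1262 TPM with a median of 182.1 TPM in Ecad- cells, a ratio of 0.44. The groups overlapped for all 3, and the upper range of Ecad- cells was wider for Eif4a2 and Eif4a3 than for Eif4a1. Without low-share cells the ratios were 0.02, 0.35 and 0.18. In Eif4a1 31.1% of the 31-base stretches recur in other genes, and its pseudogene Eif4a-ps4 was listed at 75.9 and 69.7 TPM.

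The genes of the cap-binding proteins and of the eIF4F scaffolds had ratios of at most 0.42. Eif4e, which binds the cap, lay at 26.8 to 311.0 TPM with a median of 137.4 TPM in Ecad+ cells and at 0 to 615.5 TPM with a median of 168.3 TPM in Ecad- cells, a ratio of 0.42. Eif4e2, a cap-binding relative that represses translation, lay at 8.65 to 203.8 TPM with a median of 66.7 TPM in Ecad+ and at 0 to 260.4 TPM with a median of 76.8 TPM in Ecad- cells, a ratio of 0.37. Eif4g1, the main scaffold, lay at 2.36 to 94.3 TPM with a median of 35.3 TPM in Ecad+ and at 0 to 451.6 TPM with a median of 31.7 TPM in Ecad- cells, a ratio of 0.02. In all 3 genes the groups overlapped over nearly the whole Ecad+ range. Eif4g2, a scaffold that lacks the eIF4E-binding part, lay at 5.70 to 812.7 TPM with a median of 226.6 TPM in Ecad+ and at 0.355 to 1369 TPM with a median of 237.1 TPM in Ecad- cells, a ratio of 0.31. For Eif4e, Eif4e2, Eif4g1 and Eif4g2 the ratios were 0.25, 0.07, -0.27 and 0.36 without low-share cells. The helicase cofactors Eif4b and Eif4h had ratios of 0.36 and 0.15 over all cells, and Eif4enif1 was at 0.28.

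Of the genes of the eIF4E-binding proteins, Eif4ebp1 had the largest ratio, above that of their target Eif4e. Eif4ebp1 (chr8:27260329-27276674, plus strand), which is also a known target gene of ATF4, lay at 10.5 to 1024 TPM with a median of 88.9 TPM in Ecad+ cells and at 0 to 1717 TPM with a median of 263.3 TPM in Ecad- cells. The ranges overlapped, with 5 Ecad- cells, all 5 low-share, above every Ecad+ cell, but 75 of 97 Ecad- cells stood above the Ecad+ median. Means were 148.6 ± 187 TPM (SD, 100 cells) and 393.0 ± 389 TPM (SD, 97 cells), a ratio of 1.40 with 0.40, 1.71 and 1.78 in sets 1 to 3. Without low-share cells the ratio was 0.99, the highest of the 47 genes, with 0.54, 1.28 and 1.01 within sets. Eif4ebp3 was low, and was expressed by the rule only through its Ecad- cells. It lay at 0 to 18.9 TPM with a median of 0.163 TPM in Ecad+ and at 0 to 37.6 TPM with a median of 1.13 TPM in Ecad- cells. It was listed at 0 in 47 Ecad+ and 39 Ecad- cells, and the groups overlapped except for 16 Ecad- cells, 12 of them low-share, above every Ecad+ cell. Its ratio was 1.09, and 0.47 without low-share cells, and 66.4% of its 31-base stretches lie in a longer transcript on the same strand that overlaps it. Eif4ebp2 was not expressed by the rule, with means of 4.29 and 4.10 TPM and a ratio of -0.05.

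**Figure D3:**
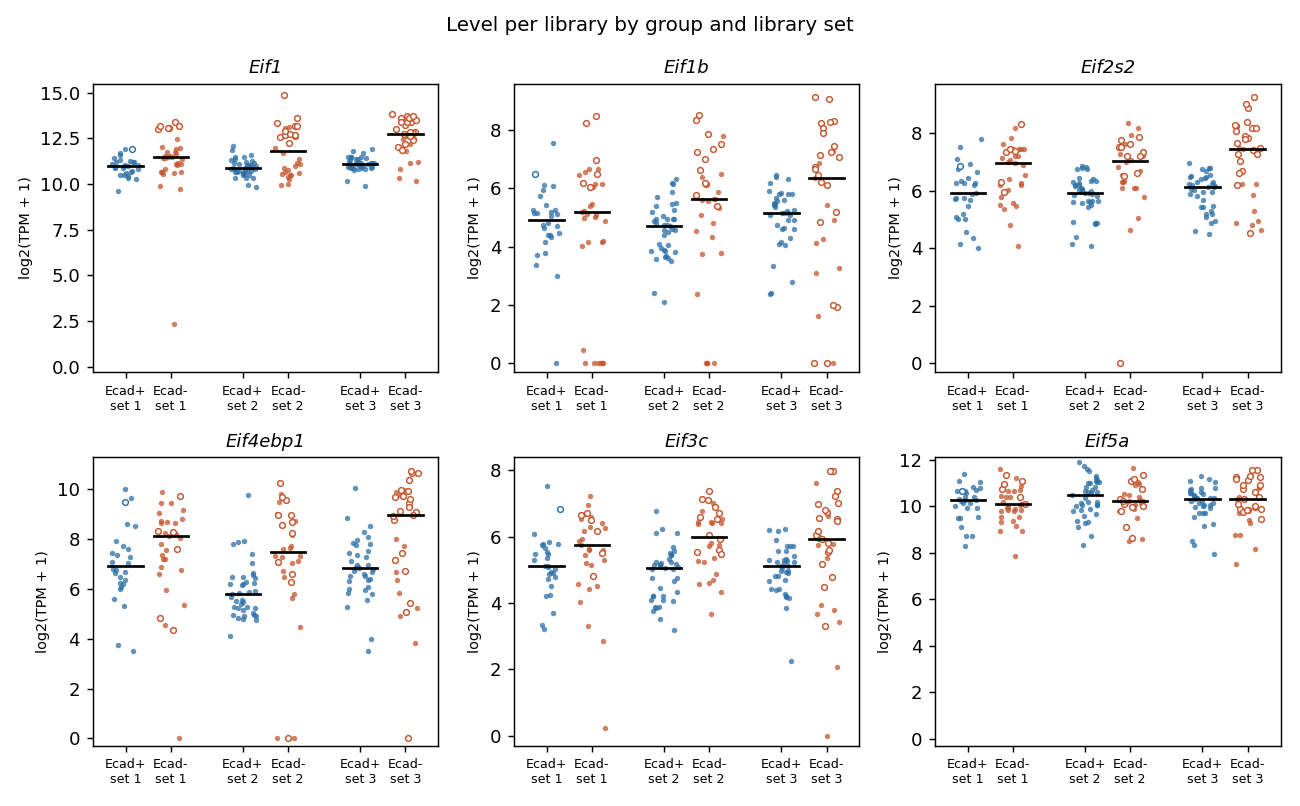
Level per library as log2(TPM + 1) (y axis) for 6 genes in the 3 library sets (x axis), blue for Ecad+ and red for Ecad-. Each point is a library, open points are low-share cells and black bars are medians. Open red points lie high for Eif1, and Eif5a shows both groups at like levels.

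Among the late-acting factors Eif5 was higher and Eif5a was not. Eif5, which makes eIF2 hydrolyse its GTP once the start codon is found, lay at 37.9 to 534.9 TPM with a median of 165.5 TPM in Ecad+ cells and at 0 to 1369 TPM with a median of 243.2 TPM in Ecad- cells. Groups overlapped, with 13 Ecad- cells, 8 of them low-share, above every Ecad+ cell, and the ratio was 0.77, or 0.41 without low-share cells. Eif5a, the hypusine-bearing factor that mainly serves elongation and termination, lay at 244.4 to 3762 TPM with a median of 1275 TPM in Ecad+ and at 180.7 to 3151 TPM with a median of 1140 TPM in Ecad- cells. Its range in Ecad- cells lay nearly within that of Ecad+ cells. The ratio was -0.04, with 0.00, -0.19 and 0.15 within sets. Eif5b had a ratio of 0.10. Eif6, which keeps the large subunit from joining early, had means of 307.6 and 464.3 TPM, a ratio of 0.59 that was 0.08 without low-share cells. The expressed pseudogenes Eif4a-ps4 and Eif5al3-ps had ratios of -0.12 and -0.05, and 38.8% of the 31-base stretches of Eif5al3-ps recur in other genes, mostly in Eif5a.

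Variation among cells was wider in Ecad- cells. The median coefficient of variation of the 47 genes was 0.55 in Ecad+ and 0.81 in Ecad- cells, against 0.84 and 1.27 over all expressed genes. The stress factor ATF4 is encoded by Atf4, whose means were 76.9 TPM in Ecad+ against 362.6 TPM in Ecad- cells. Ddit3, which encodes CHOP, had means of 31.1 and 561.6 TPM. The ratio of Atf4 was 2.22, with 1.07, 1.97 and 3.02 in sets 1 to 3, and 1.16 without low-share cells. That of Ddit3 was 4.13, and 3.07 without low-share cells. Rank correlations of the members with Atf4 across cells of 1 group had a median of 0.32 over 100 Ecad+ cells and of 0.20 over 97 Ecad- cells, against 0.14 and 0.07 over all expressed genes. Over the 57 Ecad- cells that are not low-share the member median was 0.21, against 0.10 over all genes. Over all Ecad- cells Eif1 had the highest rho with Atf4 at 0.60 (0.47 in Ecad+), followed by Eif3d at 0.58 (0.58) and Eif5 at 0.56 (0.37). Eif2s2 was at 0.52 in Ecad- and 0.54 in Ecad+ cells. This order did not hold without low-share cells, where Eif4ebp1, at 0.39 over all Ecad- cells, was highest at 0.62, ahead of Eif2s2 at 0.59, Eif1 at 0.56, Eif3d at 0.55 and Eif5 at 0.52. Eif5a was at 0.50 in Ecad+ and 0.11 in Ecad- cells, and -0.10 without low-share cells. Eif1ax was at 0.32, -0.26 and -0.10 in the same order. These are descriptions: cells share chips, library chemistry and the fixed TPM total. The mitochondrial share moved with them too, with a member median of -0.42 in Ecad+ and -0.30 in Ecad- cells, against -0.23 and -0.13 over all expressed genes, and with Eif1 at -0.57 and -0.82. With TPM scaled to non-mitochondrial genes, rho with Atf4 in Ecad- cells was 0.49 for Eif1, 0.46 for Eif3d and 0.42 for Eif5. It was 0.38 for Eif2s2, 0.30 for Eif4ebp1 and -0.44 for Eif1ax. The part of the mitochondrial share in the correlations was not otherwise tested.

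**Figure D4:**
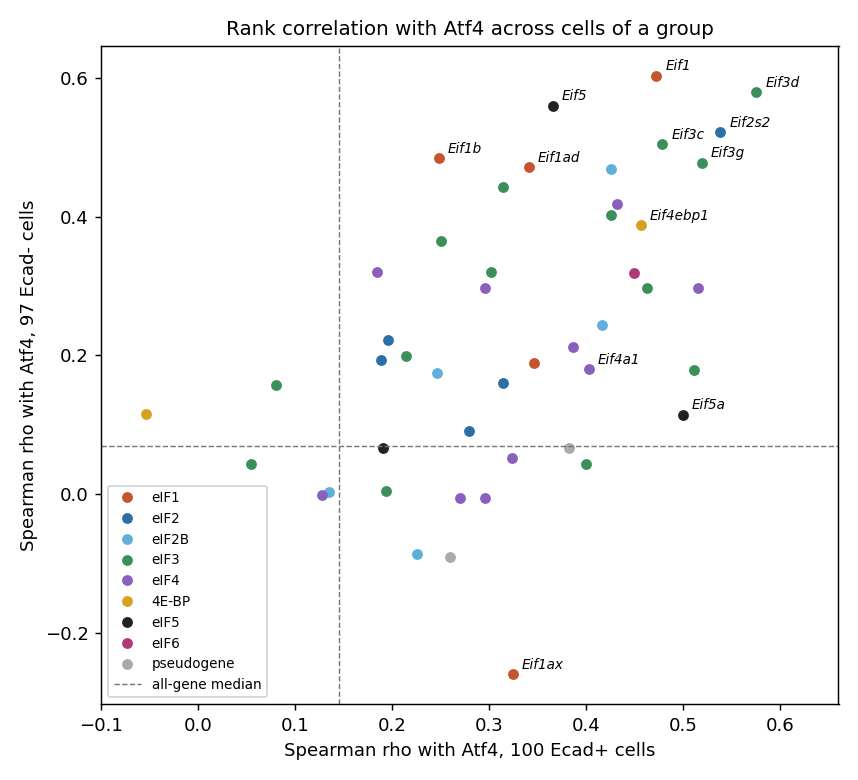
Spearman rho of each expressed initiation factor gene with Atf4 across 100 Ecad+ cells (x axis) and 97 Ecad- cells (y axis), each point a gene coloured by factor, with dashed lines at the all-gene medians of 0.14 and 0.07. Eif1, Eif3d and Eif2s2 lie high on both axes, and Eif1ax lies lowest on the y axis.

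Promoters were searched for letters bound by factors of the same stress response. RefSeq promoters on GRCm38.p6 matched 38 of the 53 genes, with 50 start sites. Eif4ebp1 was not among the 38, so its promoter was not searched. TGATGNAA, the core of the site shared by ATF4 and CHOP, occurred on either strand in the 250 bases before 1 of the 50 starts, or 2%, against 3.45% of 32841 promoters of that length. TGACGTCA, a full cAMP response element that cannot lie on the same letters, occurred in 0 of 50, against 1.55%. The match lies in the 250-base window of Eif2s3x, chrX:94212652-94212901 on the minus strand, and begins 96 bases before the RefSeq start. In GENCODE M21 the gene spans chrX:94188707-94212862, so by that annotation the match lies inside the gene. The match is shown with 20 bases on each side, in capitals as it reads on the opposite strand.
Eif2s3x: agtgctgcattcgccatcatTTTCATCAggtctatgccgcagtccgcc

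A further 53 translation genes were taken in 8 lists by role. Counts past 2-fold in lists this short are given as descriptions, beside the 14.2% of all expressed genes that were 2-fold higher, or 4.94% without low-share cells. Of 4 expressed eIF2 phosphatase subunits and Gcn2 partners 2 passed 2-fold higher. Ppp1r15a (GADD34), which removes the phosphate from eIF2, had a ratio of 2.93, and Impact, an inhibitor of the eIF2 kinase GCN2, 2.72. Without low-share cells these were 1.79 and 1.67. The Ecad+ mean of Impact, 1.82 TPM, lay under the 5 TPM level of the expression rule. Impact met that rule only through its Ecad- mean of 17.6 TPM. Of 7 expressed genes of poly(A)-binding protein and its partners 2 passed, Paip2b at 1.19 and Larp4 at 1.08, which were 1.10 and 0.47 without low-share cells. Of 2 cap-binding partners 1 passed, Gigyf2, a repressor that works with Eif4e2, at 1.98, which was 0.40 without low-share cells, while Cyfip1 was at -0.22. Among 5 termination and recycling genes Etf1, which reads stop codons, passed at 1.11, and Hbs1l was at 0.73. Without low-share cells these were 0.81 and 0.14.

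In the other lists 0 genes passed 2-fold, against the same 14.2%. The 7 expressed elongation genes had a median of -0.11 relative to all genes, with Eef2k, the kinase of eEF2, at 0.52 and Eef1e1 at 0.34. Without low-share cells Eef2k was at 1.04, past 2-fold, and Eef1e1 at 0.24. Over all cells the ratio of Eef2k was uneven, at -0.28, 2.55 and 0.28 in sets 1 to 3. On means of log2 values it was -0.16. Fewer Ecad- cells listed Eef2k above 0, at 30 against 55 for Ecad+. Of the mTORC1 and MNK genes 4 of 14 were expressed, led by Rheb, which activates mTORC1, at 0.94, and by the S6 kinase gene Rps6kb2 at 0.51, which were 0.68 and 0.22 without low-share cells. The hypusine enzymes, which modify eIF5A, had ratios of 0.51 for Dhps and 0.48 for Dohh, and of 0.19 and 0.06 without low-share cells. Among the other helpers Denr was at 0.79 and Ddx3x at 0.35, and at 0.47 and -0.10 without low-share cells. No expressed gene of the 8 lists was 2-fold lower.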

How the data were processed

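RNA of single cells was amplified with the SMARTer kit on the C1 and libraries were prepared with Nextera XT, which does not mark strand, per the labels' protocols. Per the submitters' processing notes, FastQC 0.11.5 and kallisto, with no version, were used with mm10. Neither the transcript index nor a cell filter is named there or in the labels. The deposited file is 1 table by the authors of log2 values for 28987 genes in 202 libraries. Back-transformed, each library summed to 933711 to 987134, so the deposited log2 values were read as log2(TPM + 1).

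Library pairs with a Pearson correlation over 0.97 were averaged as 1 cell. There were 5, at 0.984 to 0.994, against 0.939 for the next pair. Within-set values keep each library. A pair can lie in different sets, as Ecad+ libraries 41 (set 3) and 87 (set 1) do, so the sets do not hold wholly separate cells. Group levels are arithmetic means of TPM over cells, and ratios were computed for every gene with Python 3.11.15, numpy 2.4.6, pandas 2.3.3 and scipy 1.17.1. With 1 sample per group there was no test. Intervals of shares are exact Clopper-Pearson 95% intervals. The ratio step was run on simulated cells with independent noise and no low-share cells, which checks the code alone.

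Values by group are given for the 12 expressed members with the largest absolute ratio and for paralog pairs, and for up to 2 genes of each other list, while Atf4, Ddit3 and Cdh1 are given whatever their values. Ratios, shares and correlations of the remaining members were named after their values were seen. Members and lists were chosen with earlier results of these data known.

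Coordinates, coding sequences and shared 31-base stretches come from GENCODE M21, where 52 of 53 members matched, and promoters from RefSeq GRCm38.p6. Protein sequences were not used here, so identity of paralogs is that of coding sequences. Alternatives changed the group level, scaling, pseudocount, floor, cells, library sets and library pairs.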

Additional observations from a re-analysis of the deposited data

How the results depend on the processing

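The 12 alternatives gave 564 ratios for the 47 expressed genes. None of the 6 ratios past 2-fold changed sign, while 20 genes with smaller ratios did under at least 1 alternative, 14 of them with means of log2 values. Where a value moved, the cause was not tested. The count of genes 2-fold higher, 6, became 0 with means of log2 values, 1 (Eif4ebp1, at 1.13) when cells were rescaled without mitochondrial and ribosomal protein genes, 0 without low-share cells and 3 when ratios were centred on all genes. The count 2-fold lower, 0, became 1 (Eif2d) with means of log2 values. The count above the all-gene median in each set, 18, became 31 with no floor and 30 with ratios as measured. The count below it in each set, 8, became 5 with the trimmed mean, 4 with means of log2 values, 0 with no floor, 13 without library set 3, where only 2 sets remain, and 0 with ratios as measured. The member median relative to all genes, 0.12, became 0.34 with means of log2 values and 0.30 with no floor. Without each library set in turn the count 2-fold higher ran from 4 to 7 and this median from 0.05 to 0.18. The all-gene median itself was -0.28 with means of log2 values and 0.0085 after rescaling. No paired analysis was possible because each group is 1 sample, the results come from no test, and title numbers shared by the groups are only names.

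TPM holds no read depth, so counting error per level is unknown, and a gene listed at 0 is not shown to be absent. Ratios compare sorted cells of 1 line, and the library number and the sort cannot be told apart. Members that share sequence with another gene or overlap one on the other strand, such as Eif3j2, Eif4ebp3, Eif3d and Eif2s3x, can hold reads of that gene. Low-share cells were uneven over the sets, so differences between sets can go with them.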

Other observations

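Rank correlations between members were computed across cells of 1 group. Over 1081 pairs of the 47 expressed genes the median Spearman rho was 0.30 in 100 Ecad+ cells, 0.18 in 97 Ecad- cells and 0.24 in the 57 Ecad- cells that are not low-share. Over all 26111151 pairs of expressed genes, not matched to the members on level, these medians were 0.079, 0.071 and 0.089. The 91 pairs among eIF3 subunits had medians of 0.37, 0.26 and 0.29. The closest pair in Ecad+ cells was Eif5a with its processed copy Eif5al3-ps at 0.77, followed by Eif5a with Eif3i at 0.74 and Eif3g with Eif4a3 at 0.74. In Ecad- cells Eif5a with Eif5al3-ps was at 0.75, Eif1 with Eif1b at 0.70 and Eif3g with Eif3c at 0.63. Without low-share cells Eif2s2 stood in 3 of the 5 closest pairs, with Eif3d at 0.69, Eif4ebp1 at 0.69 and Eif5 at 0.66. These values describe cells that share chips, chemistry and the TPM total, and Eif5a and its copy share sequence.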
